A study of Homo sapiens with 8 samples.

Results

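The subject here is a group of 10 human genes of the S100 and annexin families, S100A4, S100A6, S100A10, S100A11, S100A14, S100P, ANXA1, ANXA2, ANXA3 and ANXA5, out of 19775 genes measured. Their values were taken from every probe set (a group of short array probes that together read a transcript) that the platform annotation pairs with 1 of these symbols and with no other gene. This gave 16 probe sets. There were 4 for ANXA2, 2 each for S100A6, S100A10 and ANXA1, and 1 for each of the other 6 genes. A further probe set that the annotation gives to both SNU13 and ANXA2 was kept apart.

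The arrays came from Huh7 and Hep-3B, established cell lines grown from human liver cancers. Each line received a lentivirus (multiplicity of infection 2, with 48 hours before puromycin was added) carrying a short hairpin RNA that directs destruction of a matching transcript, and was grown in DMEM with 10% fetal bovine serum. The 4 groups of 2 arrays were Huh7-shKLHL23, Huh7-shLuc, Hep-3B-shKLHL23 and Hep-3B-shLuc. The shKLHL23 groups carried a hairpin against KLHL23, a Kelch-like protein that the study's title links to the epithelial-mesenchymal transition, and the shLuc controls carried a hairpin against luciferase, which human cells lack. All groups therefore share the virus and the drug. The labels give the knockdown hairpin a single name, so loss of KLHL23 and effects of that hairpin on other transcripts cannot be told apart. They number the arrays of each group 1 and 3 and do not name them as separate cultures, so a p-value here reflects only how far these samples lie apart, and that spread may be technical.

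S100 proteins are small calcium-binding proteins that mostly form dimers and grip other proteins when calcium rises. Annexins bind the inner face of membranes through negatively charged lipids, also in a calcium-dependent way. The families meet in complexes: S100A10, which does not itself need calcium, joins ANXA2 at the plasma membrane, and S100A11 binds ANXA1. In liver several of these genes are known from bile duct epithelium, stromal cells and tumours more than from healthy hepatocytes.

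The sequence before the start of transcription is shown for 3 genes that were higher and for the 1 that was lower in knockdown Huh7 cells, the comparison in which members changed. The table from RefSeq (build GRCh38.p14) held a promoter for all 10 genes. S100A6 (chr1:153535992-153536241), S100A11 (chr1:152037005-152037254) and S100A14 (chr1:153616326-153616575) lie on the minus strand of chromosome 1, and S100P (chr4:6693628-6693877) lies on the plus strand of chromosome 4. Each line gives the 250 bases before the start, 5′ to 3′ along the gene, and capitals mark matches to the Sp1 box GGGCGG or the TATA box TATAAA.
S100A6: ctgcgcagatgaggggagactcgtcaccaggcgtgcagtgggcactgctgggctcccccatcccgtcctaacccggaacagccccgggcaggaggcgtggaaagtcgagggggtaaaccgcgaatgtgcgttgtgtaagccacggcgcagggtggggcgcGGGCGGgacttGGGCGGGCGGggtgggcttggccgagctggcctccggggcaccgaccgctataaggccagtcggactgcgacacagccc
S100A11: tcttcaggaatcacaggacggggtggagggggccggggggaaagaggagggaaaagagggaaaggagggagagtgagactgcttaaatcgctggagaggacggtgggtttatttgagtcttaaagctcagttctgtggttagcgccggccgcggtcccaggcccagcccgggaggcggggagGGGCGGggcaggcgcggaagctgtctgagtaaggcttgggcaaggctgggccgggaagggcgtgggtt
S100A14: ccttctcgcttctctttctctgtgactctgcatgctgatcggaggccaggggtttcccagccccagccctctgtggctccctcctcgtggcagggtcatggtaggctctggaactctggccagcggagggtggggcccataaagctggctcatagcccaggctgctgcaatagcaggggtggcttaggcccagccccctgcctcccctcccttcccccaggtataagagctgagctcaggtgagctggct
S100P: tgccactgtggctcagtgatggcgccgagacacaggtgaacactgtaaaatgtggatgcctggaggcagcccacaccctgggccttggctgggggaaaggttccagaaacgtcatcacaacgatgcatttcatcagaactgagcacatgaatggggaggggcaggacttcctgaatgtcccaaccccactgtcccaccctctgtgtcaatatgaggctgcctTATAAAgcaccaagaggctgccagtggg

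The S100A6 promoter held 3 matches to GGGCGG, whose first letters lie 90, 79 and 75 bases before the start, and the last 2 overlap. The S100A11 promoter held 1, at 68 bases. The S100P promoter held TATAAA at 28 bases and no GGGCGG, and the S100A14 window held neither. Both strands were searched, also for the AP-1 site TGANTCA, which was in none of these 4. Over all 10 genes GGGCGG was in 5 promoters, against 42.6% of 35116 promoters in the table, TATAAA in 4, against 10.7%, and TGANTCA in 1 (ANXA2), against 6.57%. A match is a run of letters and does not show that a factor binds there.

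Values are log2 expression as deposited, so that a difference of 1 is a 2-fold difference. Because probe sets differ in how brightly they bind, levels are compared between groups for 1 probe set and never between genes. Array medians were alike, between 4.56 and 4.60, and each array's lower quartile lay between 3.08 and 3.12. A probe set under that quartile is called dim here. The knockdown was visible in the targeted gene in Huh7: KLHL23 read 5.78 and 5.88 in Huh7-shKLHL23, against 7.89 and 7.87 in Huh7-shLuc (difference -2.05, limma adjusted p 0.00363). In Hep-3B it read 7.21 and 6.15 in knockdown arrays and 7.81 and 7.84 in controls (-1.14), which did not pass (adjusted p 0.0833), though it did without Hep-3B-shKLHL23 replicate 1 (-1.67, adjusted p 0.000784) and with array weights (0.0424). All 8 hepatocyte markers, ALB and APOA1 among them, were above the lower quartile on all 8 arrays. Their log2 values summed to 95.2 and 98.4 in Huh7-shKLHL23, 95.1 and 95.5 in Huh7-shLuc, 99.2 and 99.5 in Hep-3B-shKLHL23, and 97.6 and 97.4 in Hep-3B-shLuc.

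The first question was what the KLHL23 hairpin did to these genes in Huh7 cells. In Huh7-shKLHL23 S100A6, S100A14, S100A11 and ANXA3 were higher than in Huh7-shLuc and S100P was lower. S100A6 was 2.40-fold higher, S100A14 1.87-fold, S100A11 1.75-fold and ANXA3 1.5-fold, and S100P stood at 0.555 times its control level. The other 5 members did not pass. Calls required an adjusted p below 0.05 in limma (a linear model fitted to all genes, with Benjamini-Hochberg adjustment over all 19775). By this rule 5 of 10 members were called, against 13.5% of all genes. That share includes many dim genes. With only genes of mean log2 value at least 5 tested, 5 of 9 members were called, against 3340 of 11441 genes, a larger share. In knockdown cells 4 members were higher (5.75% of all genes) and 1 was lower (7.73% of all genes). The median member difference was 0.33, and the median over all genes was -0.000315. In bulk samples a change in the share of cells that express a gene and a change in RNA per cell cannot be told apart.

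**Figure D1:**
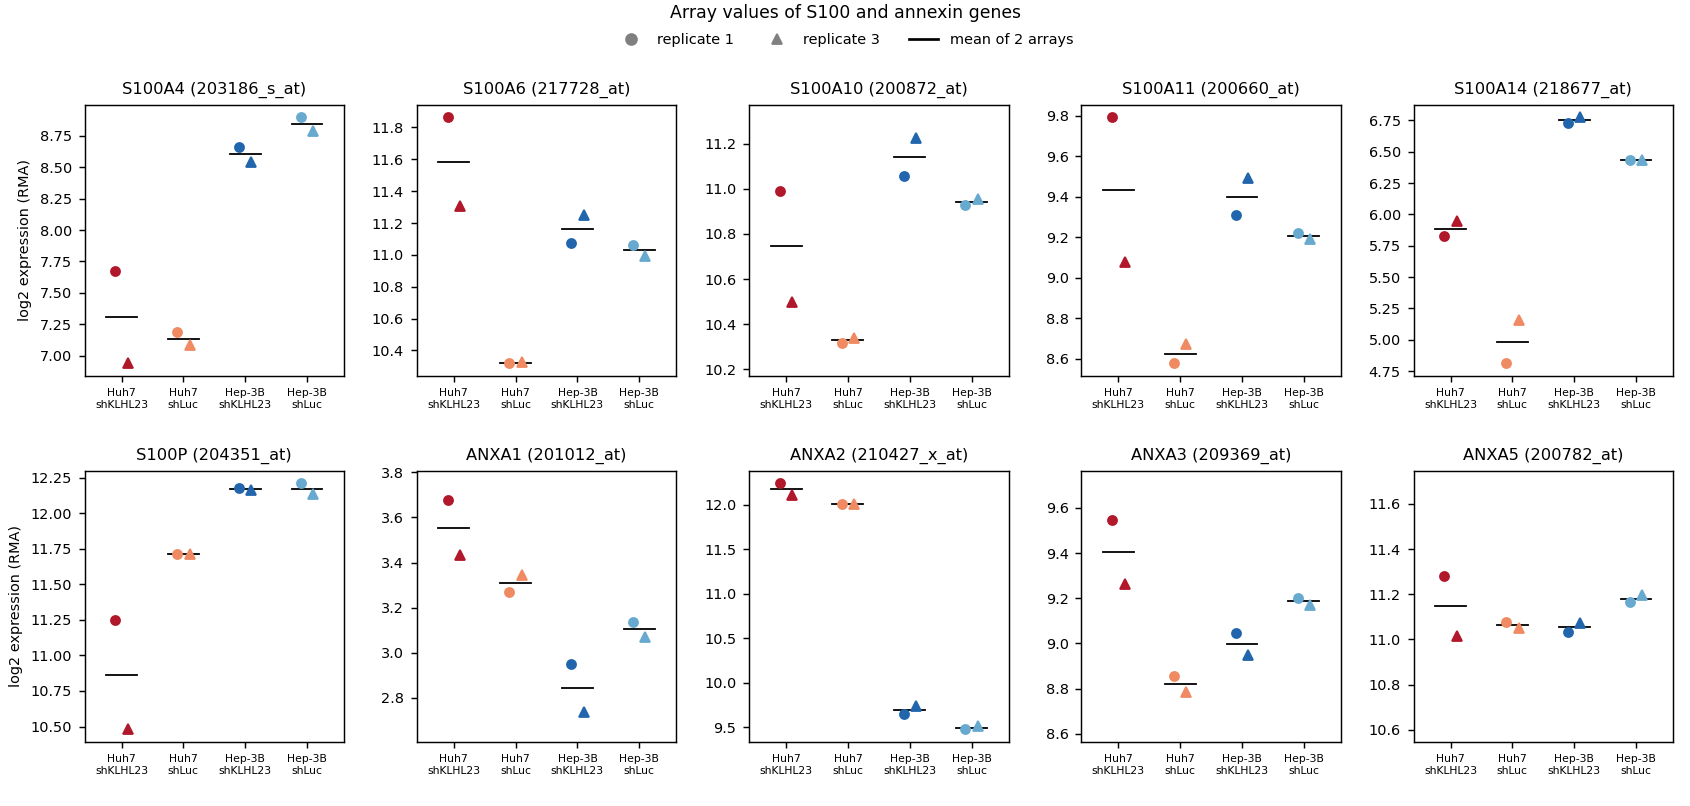
Log2 expression (vertical axis, a separate range for each gene) of the probe set standing for each of the 10 genes, by group on the horizontal axis; circles are replicate 1, triangles replicate 3 and bars the mean of 2 arrays. S100A6 in Huh7-shKLHL23 sits at 11.87 and 11.31, above both Huh7-shLuc arrays at 10.32 and 10.33, and ANXA2 separates the lines.

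Among the S100 genes that were higher, S100A6 (calcyclin, which binds the ubiquitin-ligase adaptor CACYBP) read 11.87 and 11.31 in Huh7-shKLHL23, against 10.32 and 10.33 in Huh7-shLuc. Both knockdown arrays lay well above both controls, although they were 0.56 apart. The difference was 1.26 (SE, the moderated standard error, 0.16; limma adjusted p 0.00357).

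S100A14, an S100 protein of epithelia, read 5.83 and 5.94 in Huh7-shKLHL23, against 4.81 and 5.16 in Huh7-shLuc. Here the knockdown arrays agreed to within 0.12 and the wider gap, 0.35, was between the controls. The difference was 0.90 (SE 0.12, limma adjusted p 0.00382). S100A6 and S100A14 passed under all 18 settings tried, including the removal of each array, with differences of 0.73 to 1.54 for S100A6 and 0.73 to 1.07 for S100A14. The lowest S100A6 value, 0.73, is the mean of its 2 probe sets.

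S100A11, the partner of ANXA1, read 9.79 and 9.08 in Huh7-shKLHL23, against 8.58 and 8.67 in Huh7-shLuc. The groups did not overlap, but the first knockdown array was 0.72 above the second. The difference was 0.81 (SE 0.20, limma adjusted p 0.0300). This call was lost without Huh7-shKLHL23 replicate 1 (0.45, adjusted p 0.0613), without Huh7-shLuc replicate 1 (0.76, 0.153) or 3 (0.86, 0.117), without Hep-3B-shLuc replicate 1 (0.81, 0.0504) or 3 (0.81, 0.0506), and when Huh7 was fitted alone (adjusted p 0.0820).

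ANXA3, an annexin abundant in neutrophils, was the only annexin of the 10 to change. It read 9.55 and 9.26 in Huh7-shKLHL23, against 8.86 and 8.78 in Huh7-shLuc. The lower knockdown array still lay above the higher control. The difference was 0.58 (SE 0.11, limma adjusted p 0.0126). Without Huh7-shLuc replicate 1 the value was 0.62 (adjusted p 0.0680) and without replicate 3 of that group it was 0.55 (0.0908), neither of which passed.

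S100P, which binds the membrane linker ezrin and can signal through the receptor AGER, was the only member that fell. It read 11.25 and 10.48 in Huh7-shKLHL23, against 11.71 and 11.71 in Huh7-shLuc. Both knockdown arrays lay below the controls, and they were 0.77 apart. The difference was -0.85 (SE 0.20, limma adjusted p 0.0279). Leaving out Huh7-shKLHL23 replicate 3 gave -0.47 and leaving out replicate 1 gave -1.23, both called. The call was lost without Huh7-shLuc replicate 1 (-0.85, adjusted p 0.130) or 3 (-0.85, 0.127) and with Huh7 fitted alone (0.0822).

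S100A10, the partner of ANXA2 at the plasma membrane, read 10.99 and 10.50 in Huh7-shKLHL23, against 10.32 and 10.34 in Huh7-shLuc. The knockdown arrays were above the controls, but the difference of 0.42 did not pass (SE 0.15, limma adjusted p 0.110). It passed, at 0.66 (adjusted p 0.0108), only when Huh7-shKLHL23 replicate 3 was left out. S100A4, which binds non-muscle myosin and is a marker of motile cells, read 7.67 and 6.94 in Huh7-shKLHL23, against 7.19 and 7.09 in Huh7-shLuc. Its groups overlapped, since 1 knockdown array was above and the other below both controls, and the difference was 0.17 (limma adjusted p 0.655). Without Huh7-shKLHL23 replicate 3 it was 0.54 and called (adjusted p 0.0221), and without replicate 1 it was -0.20.

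The remaining annexins did not pass. ANXA2, the plasma-membrane annexin that assembles plasmin-forming enzymes at the cell surface, read 12.25 and 12.11 in Huh7-shKLHL23, against 12.01 and 12.01 in Huh7-shLuc (difference 0.17, limma adjusted p 0.288). ANXA1, the anti-inflammatory ligand of formyl peptide receptors, read 3.68 and 3.43 in Huh7-shKLHL23, against 3.27 and 3.34 in Huh7-shLuc (0.25, adjusted p 0.212), levels not far above the lower quartile. ANXA5, which binds phosphatidylserine and serves as a stain for dying cells, read 11.28 and 11.02 in Huh7-shKLHL23, against 11.08 and 11.05 in Huh7-shLuc (0.08, adjusted p 0.672). Of these 3, ANXA5 alone had overlapping groups. Over all members 8 of 10 had groups that did not overlap, against 53.7% of all genes.

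**Figure D2:**
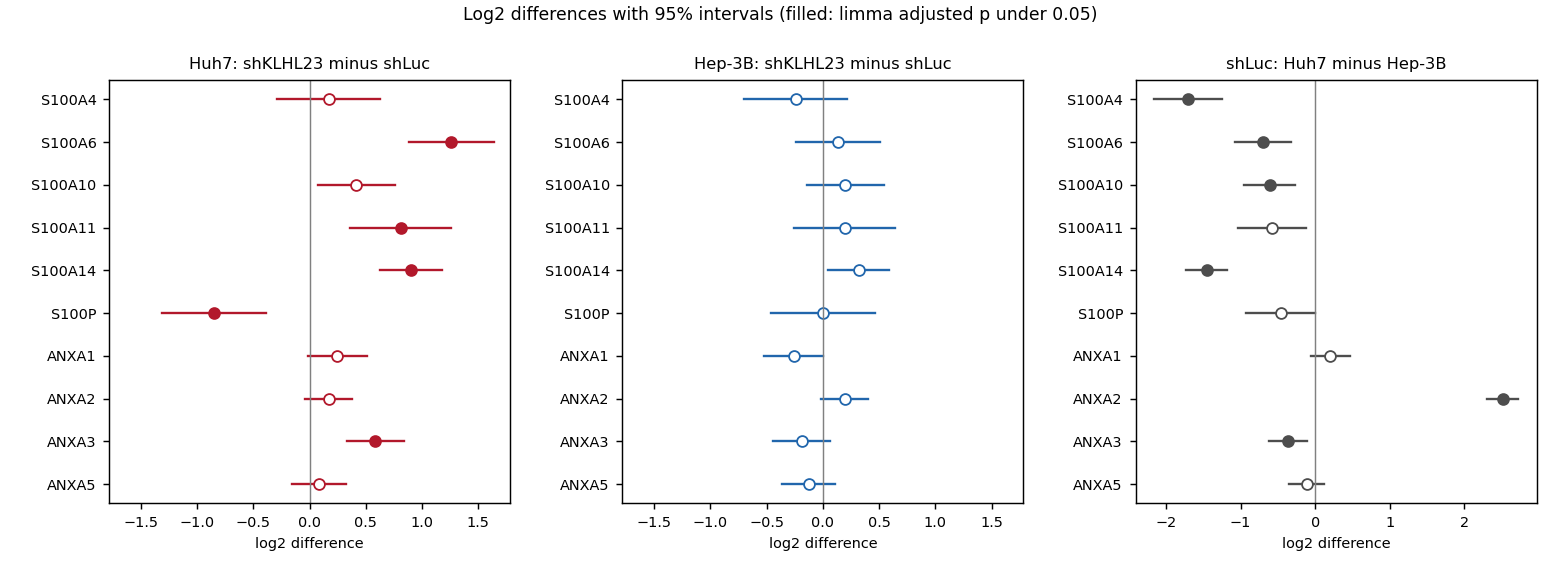
Log2 differences (horizontal axis) of the 10 genes in 3 comparisons, with 95% intervals from the limma fit; filled points passed at adjusted p under 0.05. The left panel has 5 filled points, with S100P alone on the negative side, the middle panel has 0, and the right panel has 6, with ANXA2 at 2.51; its horizontal range is wider.

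The knockdown replicates in Huh7 differed from each other more than the other pairs did. In Huh7-shKLHL23 9 of 10 members, all but S100A14, read higher in replicate 1 than in replicate 3. The median size of this gap was 0.39 over the members and 0.14 over all genes on the same 2 arrays. The gaps of S100P (0.77), S100A4 (0.73), S100A11 (0.72) and S100A6 (0.56) lay beyond the 95th percentile of all genes there, and 0 of 10 members did so in each of the other 3 groups. S100P, which fell, was thus nearer to its control level in the replicate where S100A6, S100A11 and S100A10 were further from theirs.

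Other measures moved alongside these changes in Huh7. Of the 7 bile duct epithelial (cholangiocyte) markers measured, 4 were called, against 13.5% of all genes: 3 were higher in Huh7-shKLHL23, SPP1 at 2.10, KRT19 at 1.32 and EPCAM at 0.36, and SOX9 was lower at -0.56 (limma adjusted p 0.000474, 0.00212, 0.0293 and 0.0208). The EPCAM call held under 11 of 18 settings. Among others it was lost without Huh7-shKLHL23 replicate 1, either Huh7-shLuc array or either Hep-3B-shLuc array (0.31 to 0.39). That of SOX9 was lost without any 1 of the Huh7 arrays (-0.54 to -0.41). The log2 values of the 7 summed to 57.5 and 57.6 in Huh7-shKLHL23, against 54.5 and 54.8 in Huh7-shLuc. KRT7, CFTR and MUC1 did not pass (-0.12, -0.10 and -0.07). None of the 7 was dim on any array, but CFTR lay near the lower quartile, between 3.25 and 3.58. The ACTB 3′ minus 5′ control signal, an index of RNA integrity, was 0.525 and 0.546 in Huh7-shKLHL23, against 0.873 and 0.833 in Huh7-shLuc. It ran the other way in Hep-3B, at 0.737 and 0.753 in Hep-3B-shKLHL23, against 0.442 and 0.537 in Hep-3B-shLuc. The same signal for GAPDH overlapped between the Huh7 groups, at 0.148 and 0.112 in Huh7-shKLHL23, against 0.132 and 0.0887 in Huh7-shLuc. For Hep-3B the GAPDH signal was 0.2225 and 0.236 in Hep-3B-shKLHL23, against 0.117 and 0.120 in Hep-3B-shLuc. Of the 8 hepatocyte markers TTR (transthyretin, a plasma transport protein) alone was called in each line, against 13.5% of all genes in Huh7 and 0.693% in Hep-3B. TTR was higher at 1.23 in Huh7 (limma adjusted p 0.00524) and at 1.58 in Hep-3B (adjusted p 0.0148). The Hep-3B call was lost without either Hep-3B-shLuc array or Hep-3B-shKLHL23 replicate 3 (1.31 to 1.61), and with Hep-3B fitted alone, where 0 genes were called. The part of these measures in the members' changes was not tested. None of 8 fibroblast and stellate cell markers or 7 blood and macrophage markers passed in Huh7 (against 13.5% of all genes) or in Hep-3B (against 0.693%). At an unadjusted p under 0.05 in limma there were 0 and 1 in Hep-3B, where 17.7% of all genes were. In Huh7 there were 1 and 1, which are not read because the share of all genes was not counted there. The fibroblast list summed to 34.2 and 33.4 in Huh7-shKLHL23, against 34.4 and 33.3 in Huh7-shLuc, and the blood list to 38.6 and 39.0 in Huh7-shKLHL23, against 38.9 and 39.2 in Huh7-shLuc.

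The same question in Hep-3B gave no call. None of the 10 members differed between Hep-3B-shKLHL23 and Hep-3B-shLuc in limma (0 of 10, against 0.693% of all genes), and 1, S100A14, had an unadjusted p under 0.05, as did 17.7% of all genes. The count was 0 under all 18 settings. S100A14 read 6.73 and 6.78 in Hep-3B-shKLHL23, against 6.44 and 6.44 in Hep-3B-shLuc (difference 0.32, 95% interval 0.04 to 0.59, limma adjusted p 0.222). Both knockdown arrays were above both controls. In this line 9 of 10 members had groups that did not overlap, as did 53% of all genes.

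The genes that changed in Huh7 had smaller differences here. S100A6 read 11.08 and 11.25 in Hep-3B-shKLHL23, against 11.06 and 10.99 in Hep-3B-shLuc (difference 0.14, 95% interval -0.24 to 0.51). S100A11 read 9.31 and 9.49 in Hep-3B-shKLHL23, against 9.22 and 9.19 in Hep-3B-shLuc (0.19, interval -0.26 to 0.64). ANXA3 read 9.04 and 8.95 in Hep-3B-shKLHL23, against 9.20 and 9.17 in Hep-3B-shLuc (-0.19, interval -0.44 to 0.06). Of these, S100A6 and S100A11 were slightly above their controls on both arrays and ANXA3 slightly below. S100P read 12.18 and 12.16 in Hep-3B-shKLHL23, against 12.21 and 12.13 in Hep-3B-shLuc, and was the only member whose groups overlapped (difference -0.00110, interval -0.46 to 0.46).

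The 5 members without a call in either line were also close to their Hep-3B controls. S100A4 had a difference of -0.24 and S100A10 of 0.20. Among annexins ANXA2 was at 0.19, ANXA1 at -0.26 and ANXA5 at -0.13, with limma adjusted p between 0.292 and 0.603 for these 5. The intervals reach up to 0.54 for S100A10 and 0.40 for ANXA2, and down to -0.70 for S100A4, so changes of that size cannot be told from none with 2 arrays a group.

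Whether the hairpin acted differently in the 2 lines was tested by subtracting the Hep-3B difference from that in Huh7. KLHL23 itself was at -2.05 in Huh7 and -1.14 in Hep-3B, which gave -0.91 (limma adjusted p 0.316). The part of this unequal knockdown in the members' values was not tested. None of 10 members passed (0 of 10, against 1.26% of all genes), although 5 had an unadjusted p under 0.05, as did 14.7% of all genes. ANXA3 was nearest, at 0.77 (SE 0.16, limma adjusted p 0.0629), followed by S100A6 at 1.13 (SE 0.23, adjusted p 0.0648). S100A14 was at 0.58 (adjusted p 0.159), ANXA1 at 0.51 (0.192) and S100P at -0.85 (0.216). ANXA1 was dim on most of its Hep-3B arrays, so its value is not read as a difference between the lines. ANXA3 and S100A6 passed when genes with a mean under 5 were left out of the test (adjusted p 0.0379 and 0.0464). Both also passed with an intensity trend and robust estimation in eBayes (0.0171 and 0.0286) and with limma's array weights (0.0496 and 0.0427). These weights were equal for the 2 arrays of each group: 0.571 in Huh7-shKLHL23, 1.33 in Huh7-shLuc, 0.759 in Hep-3B-shKLHL23 and 1.73 in Hep-3B-shLuc. They therefore reflect each group's spread and not the quality of single arrays. Without Huh7-shKLHL23 replicate 3, 4 members passed, S100A6 at 1.41, S100A11 at 0.97, ANXA3 at 0.91 and S100A4 at 0.78, and without replicate 1 of that group only S100P did, at -1.23. In the deposited arrays as a whole a call in Huh7 and none in Hep-3B is therefore not shown to be a difference between the lines for any of these genes.

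The lines themselves differed in these genes before any knockdown. In Huh7-shLuc ANXA2 was 5.71-fold higher than in Hep-3B-shLuc, and S100A4, S100A14, S100A6, S100A10 and ANXA3 were lower. Of 10 members 6 were called, against 32.7% of all genes, with 1 higher in Huh7 (17.7% of all genes) and 5 lower (14.9%). With only genes of mean log2 value at least 5 tested, 7 of 9 members were called, against 6151 of 11441 genes, a larger share. All 10 had groups that did not overlap, as did 67.1% of all genes. The median member difference was -0.52, and that of all genes 0.02.

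ANXA2 read 12.01 and 12.01 in Huh7-shLuc, against 9.48 and 9.52 in Hep-3B-shLuc. The replicates of each line agreed to within 0.04. The difference was 2.51 (SE 0.09, limma adjusted p 2.55e-07). Its partner S100A10 went the other way, at 10.32 and 10.34 in Huh7-shLuc, against 10.93 and 10.95 in Hep-3B-shLuc (-0.61, SE 0.15, adjusted p 0.0126).

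S100A4 read 7.19 and 7.09 in Huh7-shLuc, against 8.90 and 8.79 in Hep-3B-shLuc (difference -1.71, SE 0.20, limma adjusted p 0.000227). S100A14 read 4.81 and 5.16 in Huh7-shLuc, against 6.44 and 6.44 in Hep-3B-shLuc (-1.45, SE 0.12, adjusted p 3.04e-05). Both S100 genes were lower in Huh7 under all 17 settings that could be run. S100A6 was at -0.70 (adjusted p 0.0100) and ANXA3 at -0.37 (adjusted p 0.0335). S100A11 at -0.58 (adjusted p 0.0528), S100P at -0.46 (0.125), ANXA1 at 0.20 (0.242) and ANXA5 at -0.12 (0.473) did not pass. Of these, S100A11 was called lower in Huh7-shLuc under 7 of 17 other settings and S100P under 3 of 17, and ANXA1 and ANXA5 under none. Leaving out 1 control array ended several calls: the count was 3 without Hep-3B-shLuc replicate 1, Huh7-shLuc replicate 1 or Huh7-shLuc replicate 3, in each case because S100A6 (adjusted p 0.0588, 0.0535 and 0.0517), S100A10 (0.0553, 0.0652 and 0.0591) and ANXA3 (0.146, 0.0908 and 0.160) no longer passed. Without Hep-3B-shLuc replicate 3 S100A10 (0.0649) and ANXA3 (0.119) were lost. Between the controls 32.7% of all genes were called, and the marker lists held calls as well. Of 7 cholangiocyte markers 4 were called: KRT19 at -3.92, SPP1 at -2.38 and EPCAM at -0.74 were lower in Huh7-shLuc and SOX9 at 0.85 was higher. Calls fell on 2 of 8 fibroblast markers (ACTA2 at -4.41 and PDGFRB at 0.66) and 2 of 7 blood markers (CD14 at 2.09 and LYZ at 0.96). Neither of these 2 shares was above that of all genes. Of the 8 hepatocyte markers 4 were called, TTR at -1.08, APOA1 at -0.90 and TF at -0.75 lower in Huh7-shLuc and FGB at 0.74 higher. The FGB call held under 12 of 17 settings and was lost, among others, without any 1 control array (0.74 to 0.75). That of APOA1 was lost without _x_at sets (-0.20, limma adjusted p 0.154). The cholangiocyte sum was 54.5 and 54.8 in Huh7-shLuc, against 60.3 and 60.7 in Hep-3B-shLuc. Their part in the members' differences was not tested.

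Across the 4 groups, the arrays of the lines did not overlap for 5 of 10 members, against 33.9% of all genes. All 4 Hep-3B arrays were above all 4 Huh7 arrays for S100A4, S100A14 and S100P, and the reverse held for ANXA2. ANXA1 is the fifth, but it was dim on 3 of its 4 Hep-3B arrays, so its order between the lines is not read. For S100A14 the mean levels ran 6.75 in Hep-3B-shKLHL23, 6.44 in Hep-3B-shLuc, 5.89 in Huh7-shKLHL23 and 4.98 in Huh7-shLuc, with no overlap between neighbours. For S100A6 the order was 11.59 in Huh7-shKLHL23, 11.16 in Hep-3B-shKLHL23, 11.03 in Hep-3B-shLuc and 10.32 in Huh7-shLuc, with no overlap between neighbours; the lead of Huh7-shKLHL23 over the Hep-3B groups was not tested. S100A11 in Huh7-shKLHL23, at a mean of 9.44, overlapped Hep-3B-shKLHL23 at 9.40, and both lay above Hep-3B-shLuc at 9.21 and Huh7-shLuc at 8.63. ANXA3 ran 9.40 in Huh7-shKLHL23, 9.19 in Hep-3B-shLuc, 8.997 in Hep-3B-shKLHL23 and 8.82 in Huh7-shLuc. For ANXA5 the 4 means spanned 11.05 to 11.18 and every neighbouring pair overlapped.

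Where a gene has several probe sets they did not always move alike. S100A10 is read by 200872_at, used above, and by 238909_at. The 238909_at set read 4.68 and 4.30 in Huh7-shKLHL23, against 4.86 and 4.87 in Huh7-shLuc, and 5.45 and 5.28 in Hep-3B-shKLHL23, against 5.63 and 5.72 in Hep-3B-shLuc. It was thus below its controls in both lines where 200872_at was above them, with differences of -0.37 in Huh7 and -0.31 in Hep-3B for 238909_at, and of 0.42 in Huh7 and 0.20 in Hep-3B for 200872_at. The mean of both sets gave 0.0212 for S100A10 in Huh7. None of these 4 passed in a limma fit of all probe sets (adjusted p 0.137, 0.314, 0.140 and 0.610), which called 8.49% of probe sets in Huh7 and 1.14% in Hep-3B. Both sets were lower in Huh7-shLuc than in Hep-3B-shLuc (-0.81 for 238909_at and -0.61 for 200872_at, limma adjusted p 0.00177 and 0.0150), a comparison in which 25.8% of probe sets were called.

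The second S100A6 set, 228923_at, lay near the lower quartile, between 3.09 and 3.94. It differed by 0.20 in Huh7 (limma adjusted p 0.360 over all probe sets) and 0.23 in Hep-3B (0.382), so the call on S100A6 rests on 217728_at. For ANXA1, 201012_at was dim on 3 of 8 arrays, all from Hep-3B, and 233011_at was dim on all 8. These levels bear little on whether ANXA1 changed.

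ANXA2 has 3 bright sets, 210427_x_at, 201590_x_at and 213503_x_at, which gave 2.51, 2.60 and 2.55 between the control groups of the lines. Their names mark them as able to bind related transcripts, and they ran together (Pearson r of 0.999 or above over the 8 arrays, as a description). The fourth, 1568126_at, was dim on all 8 arrays and gave 0.29 (limma adjusted p 0.172 when the _x_at sets were left out). The set shared by SNU13 and ANXA2 gave -0.08 (adjusted p 0.643). The set of the processed copy ANXA2P2, 208816_x_at, read 10.05 and 9.95 in Huh7-shLuc, against 7.87 and 7.79 in Hep-3B-shLuc (2.17, adjusted p 1.20e-06). ANXA2 and its near-identical copy cannot be told apart by these probes.

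**Figure D3:**
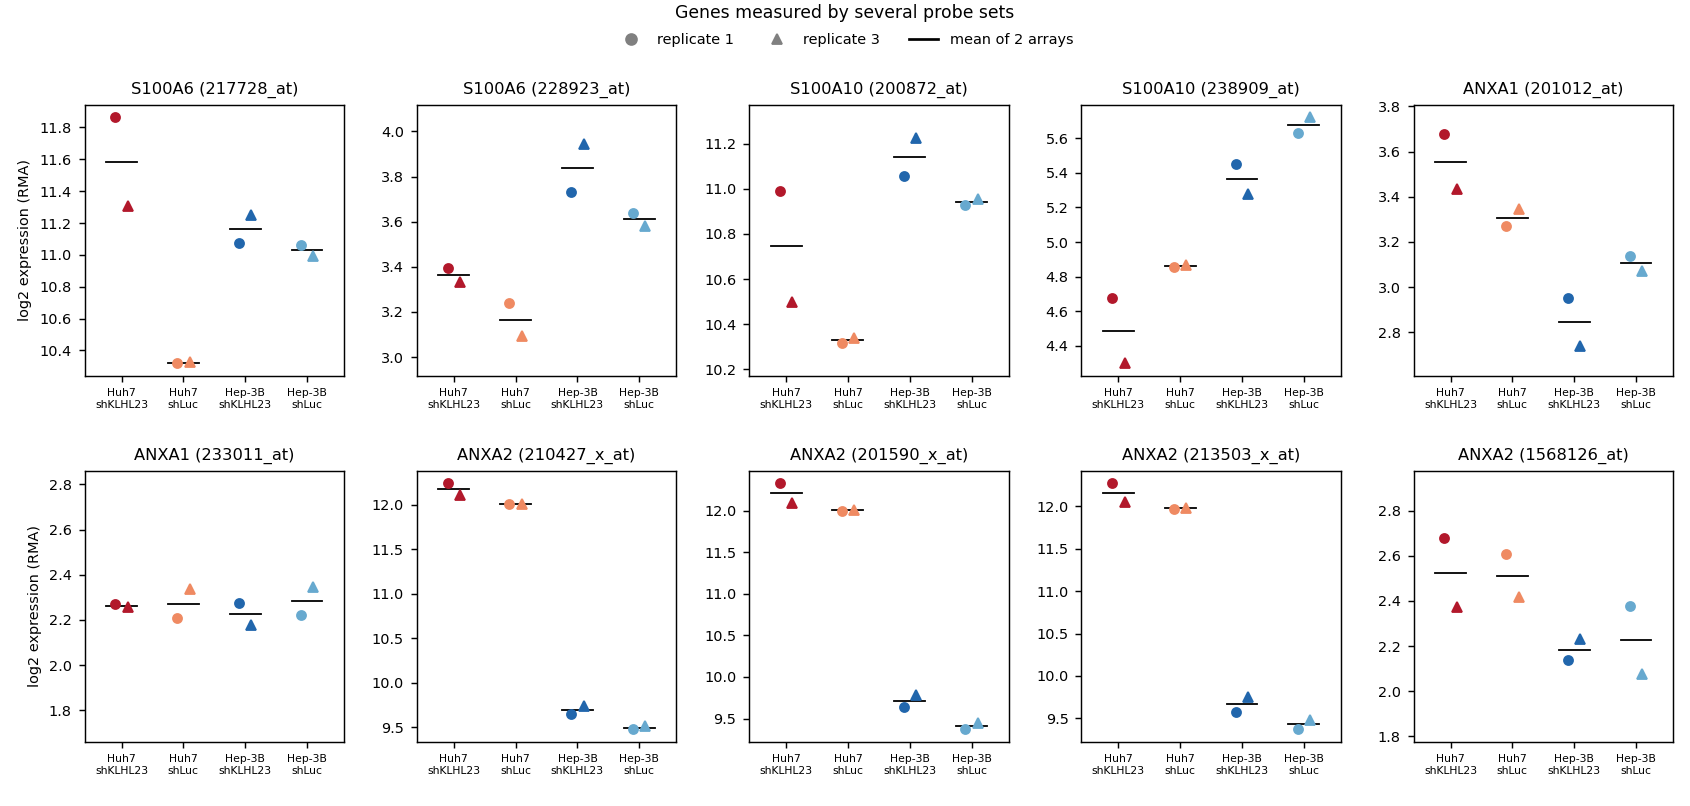
Log2 expression (vertical axes, separate ranges) of each probe set of the 4 genes read by several sets, by group; circles are replicate 1, triangles replicate 3 and bars the mean of 2 arrays. The S100A10 set 238909_at falls below its controls in both lines where 200872_at lies above them, and the 3 bright ANXA2 sets show the same gap between lines.

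Among the members, S100A6 and S100A11 ran most alike over the 8 arrays (Pearson r 0.939), followed by S100A10 with S100A14 (0.895) and S100A6 with ANXA3 (0.882), while S100A4 and ANXA2 ran opposite (-0.955). These are descriptions over 8 arrays in 4 groups and mostly restate the group means. Of 3812 genes that spanned at least 1 log2 unit, the gene most like S100A6 was FXYD2 (r 0.992), and the gene most like ANXA2 was CD24 (r 0.9996). GPAT3 was nearest to S100A4 (0.996), SSR1 to S100A14 (0.991), H2AC6 to S100A10 (0.991), SH3BGRL3 to S100A11 (0.978) and TECTB to S100P (0.978). LOC100996740 was nearest to ANXA1 (0.973). The best match was weaker for ANXA3 (PCK1, 0.905) and ANXA5 (KIF5A, 0.704).

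The rest of both families was read from fixed lists. Of 14 other S100 genes 1 rose in Huh7-shKLHL23 (against 5.75% of all genes), S100A13, which takes part in the release of FGF1 from cells. It read 9.23 and 8.86 in Huh7-shKLHL23, against 8.43 and 8.54 in Huh7-shLuc (0.56, limma adjusted p 0.0284). Its call was lost under 7 of 18 settings, among them the removal of Huh7-shKLHL23 replicate 1 (0.37, adjusted p 0.110), of Huh7-shLuc replicate 1 (0.51, 0.158) or 3 (0.61, 0.104) and of Hep-3B-shLuc replicate 1 (0.56, 0.0510) or 3 (0.56, 0.0513). The median over the 14 genes was 0.11. Of 7 other annexins measured 1 rose, against the same 5.75%, ANXA4, a membrane-binding annexin of secretory epithelia. It read 10.86 and 10.73 in Huh7-shKLHL23, against 9.77 and 9.72 in Huh7-shLuc (1.05, SE 0.09, adjusted p 0.000813). The median over the 7 was 0.14. With 1 call in each, neither list is read as standing apart from all genes.

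In Hep-3B neither list held a call (0 of 14 and 0 of 7, against 0.693% of all genes). At an unadjusted p under 0.05 in limma there were 1 and 2, against 17.7% of all genes. ANXA4 read 11.90 and 11.95 in Hep-3B-shKLHL23, against 11.77 and 11.81 in Hep-3B-shLuc. Its Huh7 difference exceeded its Hep-3B difference by 0.92 (limma adjusted p 0.0202). That call was lost without either Hep-3B-shLuc array, either Huh7-shLuc array or Hep-3B-shKLHL23 replicate 3 (0.89 to 0.95, adjusted p 0.0573 to 0.132). Between the controls 5 of 14 other S100 genes were called, 1 higher and 4 lower in Huh7-shLuc, a share near the 32.7% of all genes. S100A3 (of hair cuticle) was at -2.66, S100A2 (of basal epithelia) at -1.95, S100A1 (of heart and skeletal muscle) at -1.40, and S100A9 (of neutrophils) at 0.69. The S100A9 call was lost without Hep-3B-shLuc replicate 1 (0.38, adjusted p 0.116) or Huh7-shLuc replicate 3 (0.58, adjusted p 0.125). Of the 7 annexins ANXA4 was lower in Huh7-shLuc at -2.05 and ANXA6, an annexin with a duplicated core, was higher at 1.17 (0.65 as the mean of its probe sets, also called).

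**Figure D4:**
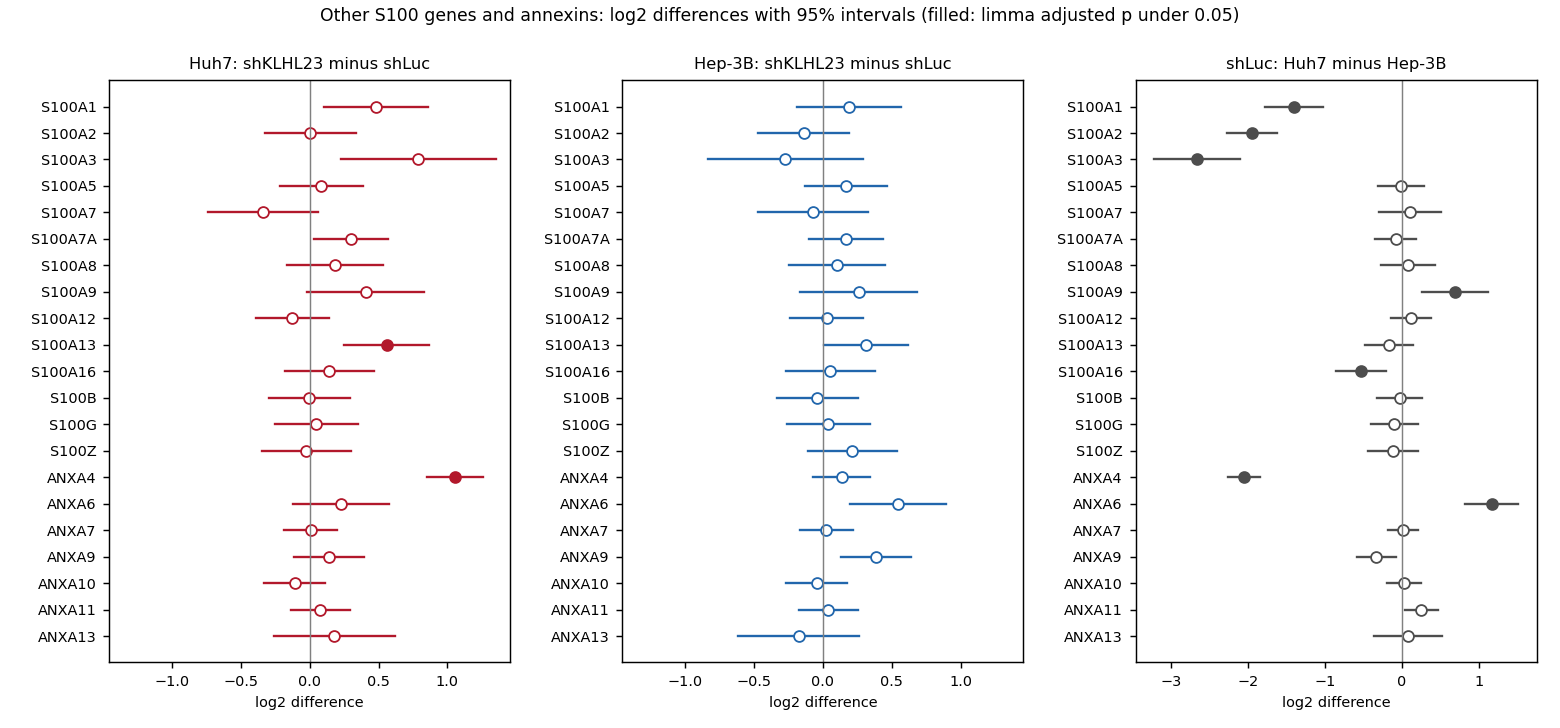
Log2 differences (horizontal axis) of the 14 other S100 genes and 7 other annexins measured, with 95% intervals from the limma fit, in the same 3 comparisons; filled points passed at adjusted p under 0.05. The filled points are S100A13 and ANXA4 in the left panel, 0 in the middle panel and 7 in the right panel, which has a wider horizontal range.

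Of 23 binding partners and receptors, 3 changed in Huh7-shKLHL23, 2 higher and 1 lower, with a median of 0.04. That count is what the 13.5% of all genes called in Huh7 would give, so the list does not stand apart and its called genes are given as values. PLA2G4A, the cytosolic phospholipase A2 that S100A10 binds, read 4.37 and 4.34 in Huh7-shKLHL23, against 5.30 and 5.81 in Huh7-shLuc (-1.20, SE 0.15, limma adjusted p 0.00289). In Hep-3B it was dim on all 4 arrays, so a fall there could not have been read. BSG (basigin, a receptor for S100A9) rose by 0.52 (adjusted p 0.0149) and MYH9 (the non-muscle myosin heavy chain that S100A4 binds) by 0.41 (adjusted p 0.0359). The BSG call was lost without Huh7-shLuc replicate 1 (0.45, 0.110) or 3 (0.59, 0.0614) or Huh7-shKLHL23 replicate 1 (0.53, 0.0525). That of MYH9 was lost under 8 of 18 settings, among them the replicate block (adjusted p 0.0560) and the removal of Huh7-shLuc replicate 1 (0.35, 0.199) or 3 (0.47, 0.105), Huh7-shKLHL23 replicate 1 (0.29, 0.131) or Hep-3B-shLuc replicate 1 (0.41, 0.0699) or 3 (0.41, 0.0701). In Hep-3B 0 of 23 were called, against 0.693% of all genes, and 2 had an unadjusted p under 0.05, against 17.7% of all genes. Between the controls 9 of 23 were called, near the 32.7% of all genes. In Huh7-shLuc 3 were higher, among them PLA2G4A, which was dim in Hep-3B-shLuc, and 6 were lower, with PLAU (urokinase) at -0.87, MYH9 at -0.82 and EZR (ezrin, which S100P binds) at -0.80.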

How the data were processed

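Total RNA of 8 samples was hybridised to Affymetrix arrays. The authors' deposited table is on the log2 scale and was made with RMA; the submitters' processing notes name Affymetrix Expression Console 1.2. This method gives all arrays the same intensity distribution, which hides a change in total RNA and shrinks changes of dim probe sets.

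Genes were named from the platform annotation (41097 of 54675 probe sets with 1 symbol). Each gene was represented by its probe set with the highest mean over the arrays, leaving 19775. limma 3.58.1 (R 4.3.3) was fitted to all genes with 4 group means, 4 residual and 4.59 prior degrees of freedom, without a filter, and p-values were adjusted over all genes. The number of arrays limits the precision. The procedure was tested on simulated data.

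The members, lists, tests and settings were chosen with earlier results of these data known. The text names every member, up to 4 called genes per list and comparison by size, and for each member the most correlated gene. Markers and settings are those named in the text; the closing section gives their effect.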

Additional observations from a re-analysis of the deposited data

Results flagged for a closer look

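With 2 arrays a group no search for single outlying arrays was made. By limma's test of the Hep-3B difference subtracted from that in Huh7, 1.26% of all genes were called. The effect of the KLHL23 hairpin differed between the lines by this test for 3 of the listed genes outside the 10. These were ANXA4 (0.92, adjusted p 0.0202), KRT19 (1.14, adjusted p 0.0476) and SPP1 (2.10, adjusted p 0.00837). KLHL23 itself was at -2.05 in Huh7 and -1.14 in Hep-3B, which gave -0.91 (adjusted p 0.316). The part of this unequal knockdown in these values was not tested. ANXA4 lost this call without either Hep-3B-shLuc array, either Huh7-shLuc array or Hep-3B-shKLHL23 replicate 3 (0.89 to 0.95, adjusted p 0.0573 to 0.132). PLA2G4A also passed (-1.42, adjusted p 0.0277), but it was dim on all 4 Hep-3B arrays, between 2.30 and 2.57, where a fall could not have been read, so this value is not taken as a difference between the lines. It was lost without Huh7-shKLHL23 replicate 1, Huh7-shLuc replicate 3 or any of the Hep-3B arrays (-1.44 to -1.16, adjusted p 0.0514 to 0.116). KRT19 kept its call under 7 of 17 settings. Among others it was lost without any 1 array other than Huh7-shKLHL23 replicate 3 (0.94 to 1.26). It was also lost with the replicate block (limma adjusted p 0.0701) and as the mean of its probe sets (0.66, 0.220). SPP1 lost its call without Hep-3B-shLuc replicate 1 or either Huh7-shLuc array (2.06 to 2.13).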

How the results depend on the processing

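The count of members called in Huh7 was 5 with all arrays, 3 with Huh7 fitted alone and 2 to 7 when each array was left out in turn, with 2 without either Huh7-shLuc array. In Hep-3B it was 0 throughout. For the difference between lines it was 2 with the filter on dim genes, with array weights and with the trend and robust estimation, and 0 to 4 without 1 array. Between controls it was 3 to 8 without 1 array. The replicate numbers did not pair the arrays (correlation of deviations between -0.0909 and 0.0889), and with the replicate number as a block the members called were 5, 0, 0 and 6, as without it.

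Over all 19775 genes the Huh7 count of 2666 was 1578 with the line alone and 562 to 3037 without 1 array. It was 3407 with trend and robust estimation, and 3340 of 11441 genes with the dim filter. With all probe sets tested it was 4643 of 54675 probe sets, a share of 8.49%, against 13.5% of genes. Counts of probe sets and of genes are in different units. In Hep-3B 137 became 671 with array weights, 850 with trend and robust estimation, 0 with the line alone and 0 to 1134 without 1 array. With the dim filter it was 358 of 11441 genes. With all probe sets it was 623 of 54675 (1.14%, against 0.693% of genes). The difference between lines gave 249, and 560 with trend and robust estimation, 143 under the replicate block and 7 to 513 without 1 array. It gave 376 of 11441 genes with the dim filter and 510 of 54675 probe sets with all of them tested. Between controls 6457 became 4504 to 7049 without 1 array. It was 8128 with array weights, and 6151 of 11441 genes with the dim filter. With all probe sets it was 14085 of 54675 (25.8%, against 32.7% of genes).

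Signs turned only for members that were not called. In Huh7, leaving out 1 array gave -0.20 to 0.54 for S100A4 and -0.0473 to 0.21 for ANXA5, negative without Huh7-shKLHL23 replicate 1. In Hep-3B S100P was 0.0105 after quantile normalization, 0.00388 after centring and -0.0407 to 0.0385 without 1 array. S100A10 was -0.0553 there as the mean of its probe sets, and ANXA2 -0.0429 without _x_at sets. In the difference between lines ANXA2 was 0.0554 without _x_at sets and -0.14 to 0.0451 without 1 array, and S100A10 was -0.0301 to 0.46 without 1 array. The cause of these changes was not tested. With 2 arrays a group, leaving 1 out assumes that the lone array varies like the others. RMA limits what can be said of dim probe sets, among them those of ANXA1.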
